A study of Homo sapiens with 8 samples.

Results

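Cytosolic ribosomal protein genes encode the proteins of the small (RPS) and large (RPL) subunits of the ribosome outside mitochondria. They were taken from the array by symbol: RPS or RPL followed by a number and at most 1 further letter or letter and digit, plus RPLP0, RPLP1, RPLP2, RPSA and FAU, with the S6 kinases, mitochondrial ribosomal proteins and pseudogenes left out. Only probe sets annotated with a single gene symbol were used, and of several for a gene the one with the highest mean log2 signal over all arrays stood for it. This gave 58 of the 11963 genes with such a probe set: 21 of the small subunit, 29 of the large subunit, the 2 acidic stalk proteins RPLP1 and RPLP2, and 6 paralogues that replace or resemble a standard protein (RPS27L, RPL39L, RPL26L1, RPL3L, RPL10L and RPS4Y1). The 58 genes had 96 probe sets between them, 35 genes with 1 and 23 with several. A further 16 ribosomal protein genes are represented here only by probe sets annotated with several symbols and were not members. RPS4Y1 is kept in the counts, and its values are not reported.

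RNA was measured on 8 single-colour Affymetrix arrays in HL-60 and THP-1, established human acute myeloid leukaemia lines labelled promyelocytic and monocytic. Cells of each line received either 100 µM diclofenac, a cyclooxygenase inhibitor used against inflammation and pain, or an equal amount of its solvent DMSO for 48 h. All 4 groups were grown in the same serum-supplemented medium, and each held 2 arrays titled as biological replicates. The labels do not say more about how the replicates were grown, and p-values measure only the spread between such arrays. The comparisons asked what diclofenac changed in each line, whether that change differed between the lines, and how the lines differed with and without the drug.

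A ribosome holds 1 copy of nearly every ribosomal protein, so cells make these proteins in matched amounts, and their mRNAs are among the most abundant in dividing cells. In vertebrates the match is reached largely at translation. Most of these mRNAs begin with a cytosine and an unbroken run of pyrimidines at the cap, the terminal oligopyrimidine (TOP) motif, through which the kinase mTORC1 and the binding protein LARP1 control their translation. An array reads the amount of mRNA and not its translation. Loss of 1 copy of several of these genes causes Diamond-Blackfan anaemia, and free RPL11 can bind MDM2 and stabilise p53.

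The motif was looked for in RefSeq sequence around the annotated transcription start (GRCh38.p14), because it is the shared sequence feature by which these genes are known. Of the 58 genes, 50 had an entry that was used. A cytosine at the annotated start followed by at least 4 further pyrimidines was found for 35 of the 50 (70%), against 5.14% of 27305 genes. With a shift of up to 5 bases allowed, 41 of 50 (82%) had such a run, against 25.2% of all genes. Among the 4 paralogues with an entry, 1 had it at the start. The starts below belong to the genes on which the line differences turn, with RPS27 set beside its paralogue RPS27L. Each line runs from 12 bases before the annotated start to 18 bases from it, 5′ to 3′ on the gene's own strand. Capitals mark the run of pyrimidines that begins with a cytosine at the annotated start, and a line with no capitals has no such run there.
RPS6, chr9:19380219-19380248, minus strand: cggaagttggccCTCTTTTCCgtggcgcct
RPS21, chr20:62387091-62387120, plus strand: gactagctgcttCCTTTCTCTCTCgcgcgc
RPL35A, chr3:197950178-197950207, plus strand: cggggcctcgtcCTTCTCTTaccgccatct
RPL34, chr4:108620564-108620593, plus strand: ggcttttttcttCCTCTTCCggggacgttg
RPL39, chrX:119791613-119791642, minus strand: ttccgccagcttCCCTCCTCTTCCTTTCTC
RPL18, chr19:48619161-48619190, minus strand: ccagcccgttctCTCTTTCCggacctggcc
RPS27, chr1:153990750-153990779, plus strand: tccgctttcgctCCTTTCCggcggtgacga
RPS27L, chr15:63157460-63157489, minus strand: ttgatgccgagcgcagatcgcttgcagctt
RPS4X, chrX:72277231-72277260, minus strand: gtctccagccccaatttctacgcgcaccgg
RPS29, chr14:49598693-49598722, minus strand: cgagcgcgcagctggcagcggtggttgttt

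RPL34 has a further annotated start downstream with no such run. RPS27 carried the run at its start and RPS27L did not. Of the printed starts without it, RPS4X and RPS29 belong to standard ribosomal proteins. A missing run says only that these letters are not at the start the annotation gives. In the 300 bases around the start, from 250 before to 50 after it, the letters CCGGAAG, a core of ETS factor sites, were present on either strand in 18 of the 50 genes (36%, against 12.2% of all genes). The letters AAGATGGC, a core of YY1 sites that can overlap the former by its last letters, were present in 5 (10% against 3.52%). TATAAA was present in 4 (8% against 14%).

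The signal of most of these genes was high. The whole-array summary was scaled to 1 trimmed mean of 500.1 to 500.2 per array, and the 58 representative probe sets held 4.36% to 6.23% of all summed intensity. The 50 genes other than the paralogues, RPLP2 and RPL27A had a mean log2 signal at or above the 98.86th percentile of all genes. Background was set on each array at the 95th percentile of 27 control probe sets for bacterial transcripts, and 55 of the 58 were above it on all 8 arrays. RPL3L, a muscle paralogue, passed on 2 arrays and RPL10L, a testis paralogue, on 4. Signals of different probe sets are not compared with each other here, since they also depend on the probes. RPLP2 and RPL27A, for example, had mean log2 signals of 8.30 and 9.87 from probe sets that are dim for such genes.

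One array stood apart. THP-1 DMSO replicate 2 had a background of 238.63 against 33.23 to 60.2 on the other 7 arrays, and 50.32% of its probe sets were above background against 66.36% to 72.14%. Between replicates, the median difference of the 58 genes after quantile normalization was 0.048 to 0.077 log2 units in the 4 groups, and 0.070 in THP-1 DMSO. Over all genes the same figure was 0.15 to 0.20 in the other 3 groups and 0.45 in THP-1 DMSO. The bright ribosomal protein probe sets were therefore less spread on that pair of arrays than genes at large. Values of the members without the array are given where they differ by much. Of the 6 granule genes of early myeloid cells examined, 5 (AZU1, CTSG, ELANE, MS4A3 and PRTN3) were above background on all 8 arrays. MPO, which defines that lineage, was at 41.7 and 40.6 on the HL-60 DMSO arrays, below background on both. Of 5 monocyte genes, CSF1R, ITGAM and LYZ were above background on all 8 arrays, CD14 on 3, none of them of HL-60, and FCN1 on 6, including all 4 of HL-60. The same rule also passed genes listed for T, B and red cells. HBB passed on 8 arrays, CD2 and CD3E on 7, MS4A1 on 6, CD79A on 4, CD3D on 3 and ALAS2 on 0. ITGAM (142.2 to 306.4) and CSF1R (78.6 to 426.3) were in the range of HBB (132.4 to 423.9). For such dim genes, passing background alone does not show expression. These markers did not settle the labelled cell types, and the lines are named as labelled.

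**Figure D1:**
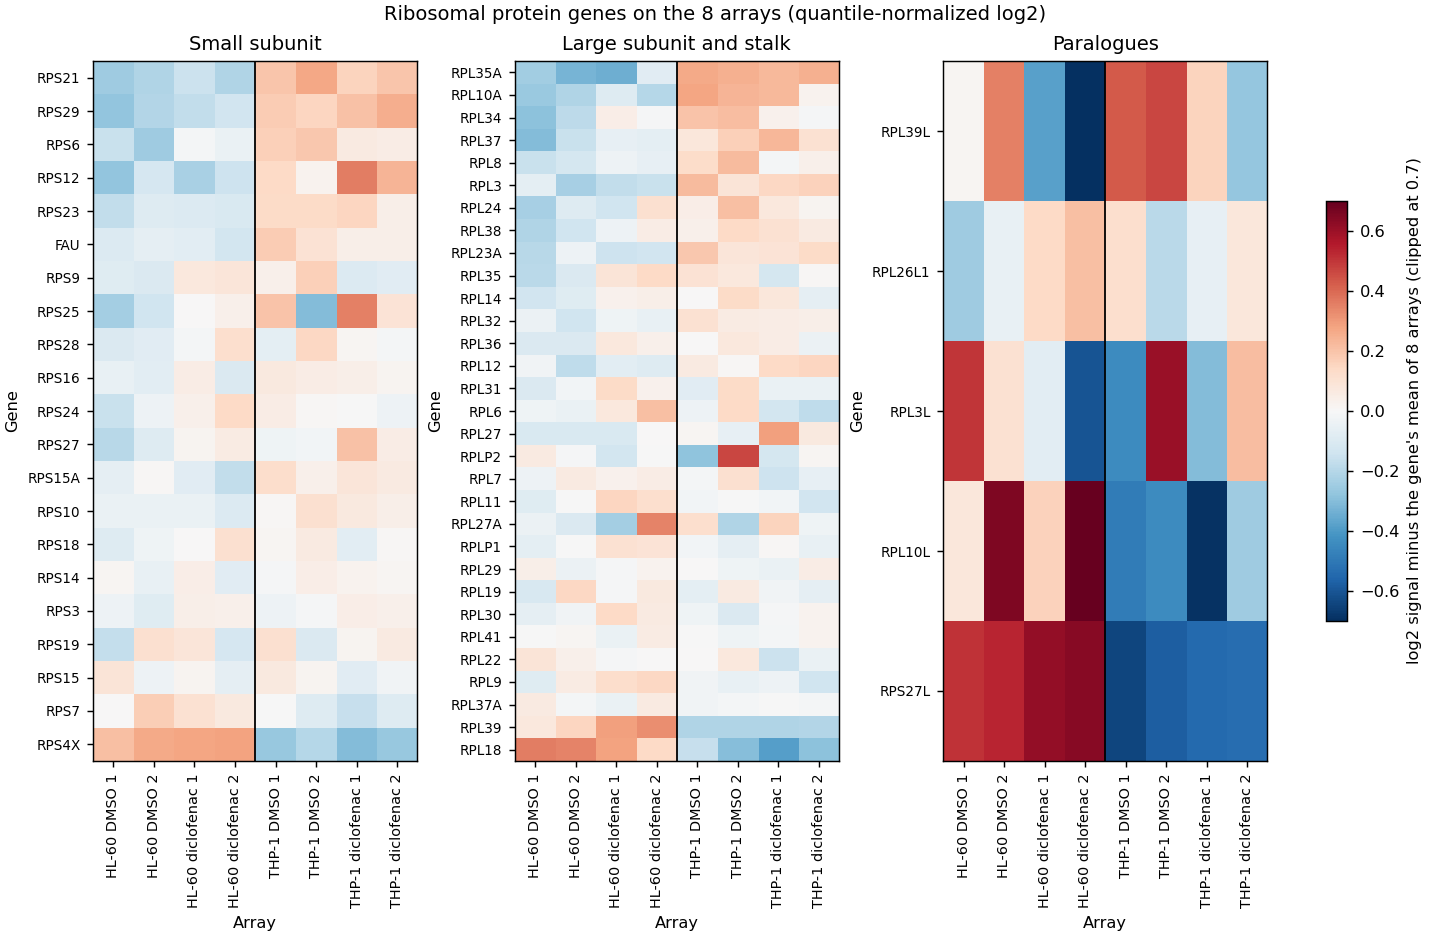
Quantile-normalized log2 signal of 57 genes on each of the 8 arrays, as the difference from each gene's mean over the arrays (colour, clipped at 0.7), in 3 panels for small subunit, large subunit and stalk, and paralogues. Arrays of a line share columns on one side of the vertical rule: RPS4X, RPL39, RPL18 and RPS27L are higher on all 4 HL-60 arrays, and RPS21, RPS29 and RPL35A are higher on all 4 THP-1 arrays.

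Ribosomal protein genes differed between the untreated lines in both directions, by at most 1.495-fold for a standard protein and by 2.19-fold for the paralogue RPS27L. With DMSO, 19 of 58 passed the test between THP-1 and HL-60 (limma, adjusted p under 0.05): 15 were higher in THP-1 and 4 lower. That is 32.8% of them against 18.7% of all genes. In the higher direction it was 25.9% against 9.31%, and in the lower 6.9% against 9.4%. Among the 57 other genes with signals as bright, 40.4% passed, 8 higher and 15 lower. The median difference of the 58 genes was 0.11 log2 units (43 of 58 above 0), against -0.098 for the other bright genes and 0.030 for all genes. Without THP-1 DMSO replicate 2 these were 0.11, -0.045 and -0.011. Both THP-1 arrays were above both HL-60 arrays for 31 genes (53.4% against 26.9% of all genes) and below for 6 (10.3% against 26%). The sign of that median depended on the scaling: it was 0.034 as deposited and -0.20 when each array was centred on its median, where 7 of 58 were above 0. The distance to the other bright genes was less affected, at 0.21 after quantile normalization and 0.24 with either alternative. The median of all genes itself moved to 0.17 as deposited and -0.066 under median centring, and relative to it the 58 genes were at 0.082 after quantile normalization and -0.14 with either alternative. As deposited, the members' median was 14.06 and 13.53 log2 units on THP-1 DMSO replicates 1 and 2, against 13.76 and 13.86 in HL-60. That of all genes was 7.72 and 8.48 against 8.03 and 7.79. The THP-1 arrays thus lay on either side of both HL-60 arrays, and neither alternative was refitted without replicate 2. In bulk RNA, fewer cells of a type and less RNA per cell cannot be told apart.

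RPS27L, a paralogue of RPS27 known as a target of p53, had the widest difference among the genes lower in THP-1. Its deposited intensities were 8367 and 9046 in HL-60 with DMSO, 9421 and 11089 in HL-60 with diclofenac, 4175 and 3299 in THP-1 with DMSO, and 4338 and 4487 in THP-1 with diclofenac. All 4 HL-60 arrays were above all 4 THP-1 arrays. It was 2.19-fold lower in THP-1 with DMSO (log2 difference -1.13, SE 0.066, 2 arrays a group, adjusted p = 1.7e-05 by limma), and 2.24-fold lower with diclofenac (-1.17, adjusted p = 1.8e-05). RPS27 itself, a zinc-finger protein of the small subunit, had differences of 0.12 and 0.0885, neither past the threshold (adjusted p = 0.31 and 0.56).

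RPS4X, an X-linked small subunit protein with a near-identical Y-linked copy, was at 18222 and 18566 in HL-60 with DMSO and at 18498 and 25523 with diclofenac. In THP-1 it was at 14479 and 10693 with DMSO and at 12686 and 14051 with diclofenac. Here too every HL-60 array was above every THP-1 array. The log2 difference was -0.47 with DMSO (SE 0.057, adjusted p = 8.8e-04) and -0.56 with diclofenac (adjusted p = 3.4e-04). Its probe set is of the kind that can bind several transcripts, and the share of the Y-linked copy in the signal was not tested. The other bright RPS4X probe set, of the same kind, also passed in both comparisons, with a difference of -0.48 with diclofenac.

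RPL39, a small protein at the exit tunnel of the large subunit, was at 19534 and 19840 in HL-60 with DMSO and at 22093 and 32074 with diclofenac. The THP-1 arrays were at 17370 and 12076 with DMSO and at 15678 and 17255 with diclofenac, again all below those of HL-60. The log2 difference was -0.32 with DMSO (SE 0.055, adjusted p = 0.0049) and -0.51 with diclofenac (adjusted p = 4.5e-04). RPL18, of the large subunit, was at 19113 and 18567 in HL-60 with DMSO and 17590 and 21863 with diclofenac. Its THP-1 values were 14641 and 9540 with DMSO and 11736 and 13271 with diclofenac. The difference was -0.58 with DMSO (SE 0.076, adjusted p = 0.0012) and -0.54 with diclofenac (adjusted p = 0.0019). It rested on the bright probe set of RPL18: the mean of all its probe sets gave 0.14 and 0.041, both of the other sign.

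**Figure D2:**
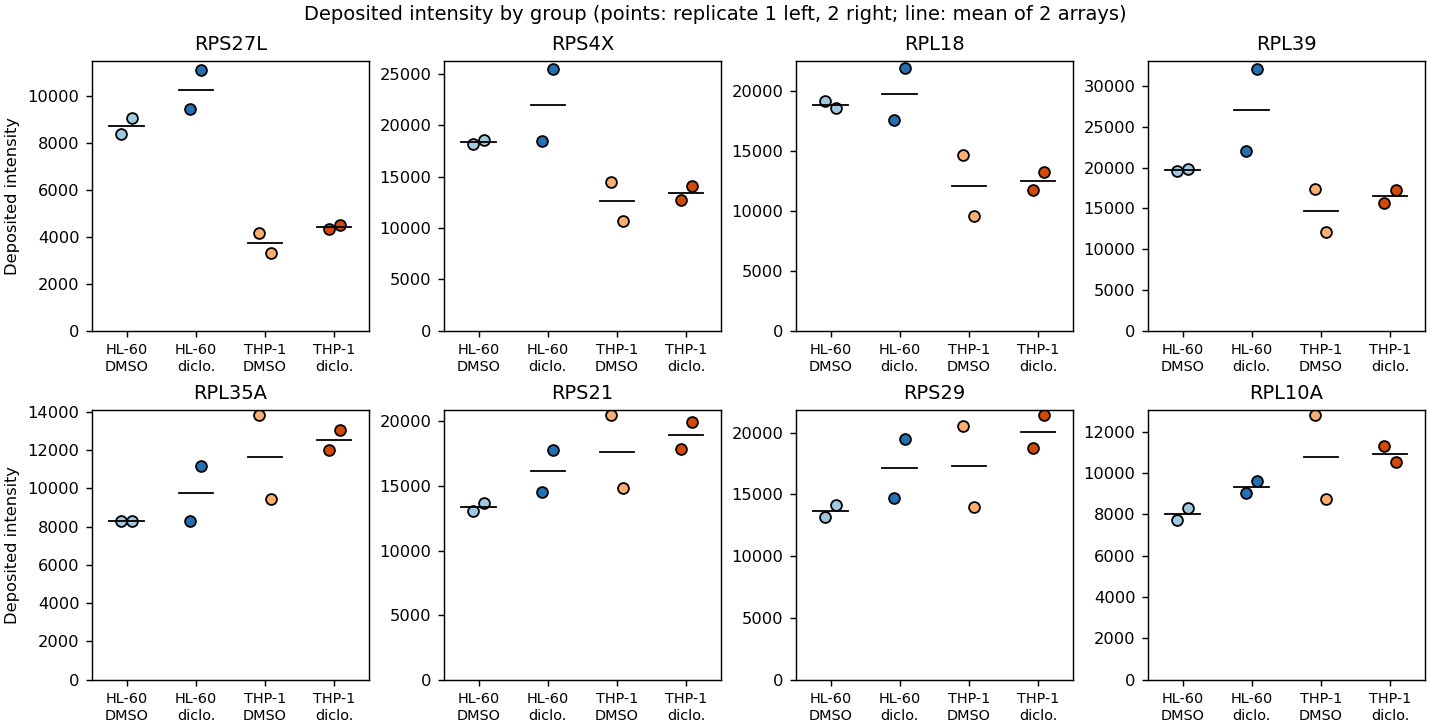
Deposited linear intensity (vertical axis from 0) of 8 ribosomal protein genes in the 4 groups; points are single arrays, replicate 1 left and 2 right, and each line is the mean of 2 arrays. In the upper row every HL-60 point lies above every THP-1 point, and in the lower row the THP-1 DMSO points lie far apart and overlap with those of HL-60 treated with diclofenac.

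Genes of both subunits were higher in THP-1, with RPL35A at the widest difference. RPL35A, a large subunit protein and a Diamond-Blackfan anaemia gene, was at 8273 and 8280 in HL-60 with DMSO and at 13804 and 9418 in THP-1 with DMSO. With diclofenac it was at 8293 and 11165 in HL-60 and at 12020 and 13031 in THP-1. After quantile normalization it was 1.46-fold higher in THP-1 with DMSO (log2 difference 0.54, SE 0.088, adjusted p = 0.0038) and 1.36-fold higher with diclofenac (0.45, adjusted p = 0.011). By the mean of its probe sets, the others of which are dim, RPL35A was at 0.12 and 0.22, and neither passed. RPS21, a small subunit protein, was at 13036 and 13667 in HL-60 with DMSO and at 20486 and 14828 in THP-1 with DMSO. Its normalized difference was 0.46 (SE 0.059, adjusted p = 0.0011), and 0.36 with diclofenac (adjusted p = 0.0047). RPS29, in the head of the small subunit, was at 13148 and 14118 in HL-60 with DMSO and at 20574 and 14004 in THP-1 with DMSO. Its difference was 0.40 (SE 0.057, adjusted p = 0.0019), and 0.38 with diclofenac (adjusted p = 0.0026). For these 3 genes the THP-1 DMSO arrays lay far apart as deposited and close together after normalization: RPL35A was at 13.59 and 13.58 log2 units there, against 13.08 and 13.01 in HL-60.

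The other 11 reported genes that were higher in THP-1 with DMSO came from both subunits. RPL10A, of the mobile L1 stalk, was 1.41-fold higher (log2 difference 0.49, SE 0.082, adjusted p = 0.0045), from 7722 and 8320 in HL-60 to 12786 and 8761 in THP-1. RPL34 was higher by 0.44 (SE 0.066, adjusted p = 0.0024). RPS6, the substrate of the S6 kinases, was higher by 0.38 (SE 0.056, adjusted p = 0.0023), from 20356 and 18328 to 27465 and 18725. RPL37 was higher by 0.35, RPL8 and RPL3, which lie by the peptidyl transferase centre, each by 0.31, and RPS12 by 0.28. RPS23, of the decoding centre, and RPL38 were each higher by 0.26, RPL23A, at the exit tunnel, by 0.25, and FAU, whose product carries a ubiquitin-like domain fused to a small subunit protein, by 0.21. Leaving out each of the 8 arrays in turn, RPL10A, RPL34 and RPS6 passed in all 8 fits, RPL37 and RPL8 in 6, RPS23 in 5, RPL38 in 3, RPL3 in 2, RPL23A in 1, and RPS12 and FAU in 0. Under median centring 9 of these 11 changed sign, and RPL10A and RPL34 did not. The median intensities of the arrays were 109.6 and 241.2 in THP-1 with DMSO and 150.2 and 117 in HL-60. RPL38 also turned to -0.32 when probe sets that can bind several transcripts were avoided.

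By subunit, 6 of 21 small subunit genes were higher and 1 lower in THP-1 with DMSO, with a median of 0.12. Of 29 large subunit genes, 8 were higher and 2 lower, with a median of 0.089. Neither stalk gene passed. Without THP-1 DMSO replicate 2 the count of all 58 was 12, of which 8 were higher and 4 lower, which is 20.7% against 22.4% of all genes, so the members' share was then no higher than that of all genes. Without HL-60 DMSO replicate 1 it was also 12, against 9.68% of all genes. On the deposited scale 2 of 58 passed (3.45% against 16.3%), as did 2 in a fit whose spread was moderated without an intensity trend (against 14.3%), and under median centring 1 did (1.72% against 6.32%). No standard protein that passed with DMSO as reported kept its call in these 3 fits, while RPS27L lost its call only under median centring.

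With diclofenac in both lines, a comparison on 4 other arrays, 12 of 58 passed (20.7% against 16.1% of all genes): 7 higher and 5 lower in THP-1, where 8.48% and 7.63% of all genes were. Among the 57 other bright genes 26.3% passed, 6 higher and 9 lower. The arrays of the lines did not overlap for 21 genes higher (36.2% against 30.8%) and 19 lower (32.8% against 31.4%). The median was 0.0056, against 0.038 for the other bright genes, and it was -0.10 as deposited and -0.15 under median centring. All 4 genes lower with DMSO were lower again, and RPL6 was added at -0.30 (SE 0.079, adjusted p = 0.042). Among the standard proteins RPS12 had the widest higher difference, 0.48 (SE 0.078, adjusted p = 0.0041), and RPL3 and RPL23A passed again at 0.32 and 0.25. With each array left out in turn, RPL6 and RPL23A passed in 2 of 8 fits and RPL3 in 4. The genes that passed in the same direction in both comparisons were 7 higher and 4 lower, 57.9% of the 19 and 91.7% of the 12. The same overlap was not counted over all genes. The sign was shared by 43 of 58 genes, against 68.2% of all genes. RPL34, higher by 0.44 with DMSO, was at -0.0066 with diclofenac, and RPS6, higher by 0.38 with DMSO, was at 0.0875. Without THP-1 diclofenac replicate 2, 7 of 58 passed (12.1% against 7.57% of all genes).

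**Figure D3:**
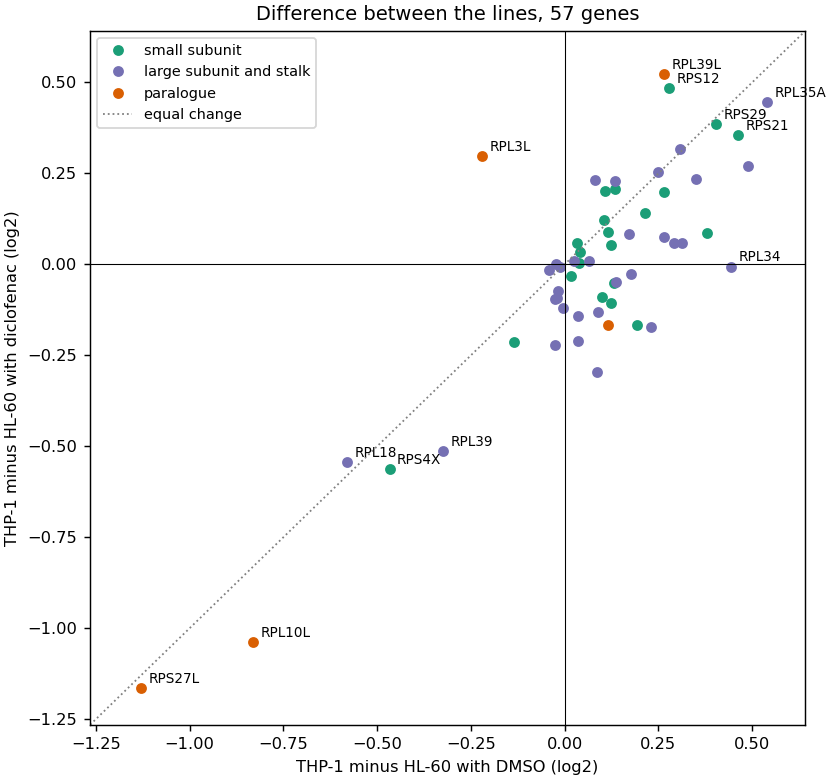
Log2 difference THP-1 minus HL-60 for 57 genes, with DMSO on the horizontal axis and with diclofenac on the vertical axis, from separate sets of 4 arrays; each point is 1 gene and colours mark its role. RPS27L lies lowest at -1.13 and -1.17, followed by the dim RPL10L at -0.83 and -1.04 (neither past the threshold) and by RPS4X, RPL18 and RPL39, and among the standard proteins RPL35A lies highest with DMSO at 0.54 and RPS12 with diclofenac at 0.48.

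The line differences were also taken relative to the ribosomal protein genes themselves, a setting chosen after the data were seen. Each array, in deposited log2 values without quantile normalization, was centred on the median of the 50 brightest members. With DMSO 9 of 58 then passed and with diclofenac 10, against 10.8% and 10.9% of all genes. This centring takes out spread that the members share, which other genes need not share. The shares are therefore not a like comparison, and the calls give no separate support. RPS27L, RPS4X, RPL18, RPL39, RPL35A, RPS21 and RPS29 passed in both, RPL10A with DMSO, and RPL3 and RPS12 with diclofenac. The order of the 58 genes by signal was closer within a line than between lines. Spearman's rho over the genes was 0.957 to 0.993 between arrays of a line and 0.847 to 0.910 between arrays of different lines. Over all genes, Pearson's r was 0.8945 to 0.9838 within a line and 0.8401 to 0.9233 between lines. Closer values within a line were thus not particular to the ribosomal protein genes. These correlations are over genes read on shared arrays and describe the arrays.

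No ribosomal protein gene passed the adjusted test for diclofenac in either line, a test that called few genes of any kind. In HL-60, 0 of 58 passed the limma test, as did 0.00836% of all genes, and the lowest adjusted p was 0.70. At an unadjusted p under 0.05, 14 genes were higher (2.44% of all genes were) and 1 lower (2.13%), together 25.9% against 4.57% of all genes. Among the 57 other bright genes it was 15.8%, 1 higher and 8 lower. The median change was 0.081 log2 units with 44 of 58 above 0, against -0.077 for the other bright genes and -0.0010 for all genes. It kept its sign under median centring (0.42) and on the deposited scale (0.26), where the median of all genes itself moved to 0.10 and -0.057. Relative to all genes it was 0.082, 0.32 and 0.32, and relative to the other bright genes 0.16, 0.14 and 0.14. As deposited, the members' median was 13.76 and 13.86 log2 units on the DMSO arrays and 13.87 and 14.25 with diclofenac. Diclofenac replicate 2 thus carried most of the deposited rise. Without that array the quantile-normalized median was 0.064, and the other scalings were not refitted. Quantile normalization gives every array the same distribution, so at the bright end a rise of some genes is met by a fall of others. Both diclofenac arrays were above both DMSO arrays for 27 of 58 genes (46.6% against 20.6% of all genes), and below for 5 (8.62% against 19.7%).

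RPL34 had the lowest p of the group in HL-60. Its deposited intensities were 7356 and 8275 with DMSO and 9516 and 10475 with diclofenac, and the arrays did not overlap. The log2 change was 0.25 (SE 0.066, adjusted p = 0.70), a fold of 1.19. RPL35, at the exit tunnel, went from 9030 and 9941 to 11230 and 14555, with a change of 0.26 (SE 0.070, adjusted p = 0.75). RPL39 had a change of 0.19 (adjusted p = 0.77) and RPS6 of 0.17 (adjusted p = 0.87). RPL11, the MDM2-binding protein, went from 14979 and 15790 to 17382 and 23298, a change of 0.18 (adjusted p = 0.93), and RPS27 and RPS24 likewise had 0.18. RPS25, used in initiation at some viral internal entry sites, had 0.21 (SE 0.15). The brightest representatives, RPL37A, RPS10 and RPS19, and RPL41, RPL22, RPS14 and RPS3 from the large and small subunits, all had an adjusted p of 1.

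The widest changes in HL-60 were those of the paralogues RPL39L, RPL3L and RPL26L1, and none passed. RPL39L, which replaces RPL39 in ribosomes of the male germ line, was at 474 and 589 with DMSO and at 329 and 220 with diclofenac, 1.70-fold lower (log2 change -0.76, SE 0.24, adjusted p = 0.85). In THP-1 it was at 608 and 675 with DMSO and at 496 and 342 with diclofenac, 1.42-fold lower (-0.51, SE 0.24, adjusted p = 0.48). The treated arrays of each line were below its DMSO arrays. RPL26L1, a close copy of RPL26, was at 1801 and 2176 with DMSO and at 2476 and 2624 with diclofenac in HL-60 (0.33, SE 0.13), and at 2529, 1661, 2169 and 2424 in THP-1 in the same order (0.043). RPL3L had -0.64 in HL-60 with an SE of 0.42 and RPL10L 0.20 with an SE of 0.40. RPL3L was at or below 199 on every array and RPL10L at or below 151.

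In THP-1, 0 of 58 passed, as did 0.184% of all genes, and the lowest adjusted p was 0.39. At an unadjusted p under 0.05, 2 were higher (6.26% of all genes were) and 4 lower (5.62%), together 10.3% against 11.9% of all genes. Among the 57 other bright genes it was 19.3%, 4 higher and 7 lower. The median change was -0.038 (18 of 58 above 0) and -0.023 without THP-1 DMSO replicate 2, against -0.0040 for the other bright genes (-0.035 without that array), and it turned to 0.13 as deposited and 0.48 under median centring. Relative to the other bright genes it was -0.034, -0.037 and -0.037. The median of all genes was -0.15 as deposited and 0.20 under median centring, and relative to it the 58 genes were at -0.024, 0.28 and 0.28. As deposited, the members' median was 14.06 and 13.53 log2 units on DMSO replicates 1 and 2, and 13.87 and 13.96 with diclofenac. The median of all genes was 7.72 and 8.48 against 7.87 and 7.80. Both diclofenac arrays thus lay between the DMSO arrays, and neither alternative scaling was refitted without THP-1 DMSO replicate 2. Both diclofenac arrays were above both DMSO arrays for 9 genes (15.5% against 19.3%) and below for 17 (29.3% against 21.3%).

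RPL6, of the large subunit, had the widest negative change of a standard protein in THP-1. It was at 11667 and 9284 with DMSO and at 10208 and 10402 with diclofenac, and the normalized change was -0.20 (SE 0.079, adjusted p = 0.43). RPL34 had -0.20 (SE 0.066, adjusted p = 0.39), RPS9 -0.19 (adjusted p = 0.39) and RPL8 -0.16 (adjusted p = 0.41). RPS25 had the widest positive change, 0.28 (SE 0.15, adjusted p = 0.51). It was at 14302 and 7014 with DMSO and at 14206 and 12907 with diclofenac, and without THP-1 DMSO replicate 2, its low array, the change was 0.026. RPS12 followed with 0.22 (SE 0.078, adjusted p = 0.41), RPL27 with 0.20, RPS27 with 0.15 and RPL12 with 0.11. When THP-1 DMSO replicate 1 was left out, so that the array that stood apart was the lone control, 3 of the members passed, 5.17% against 32.7% of all genes: RPS25 at 0.52, RPL6 at -0.29 and RPS9 at -0.25.

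**Figure D4:**
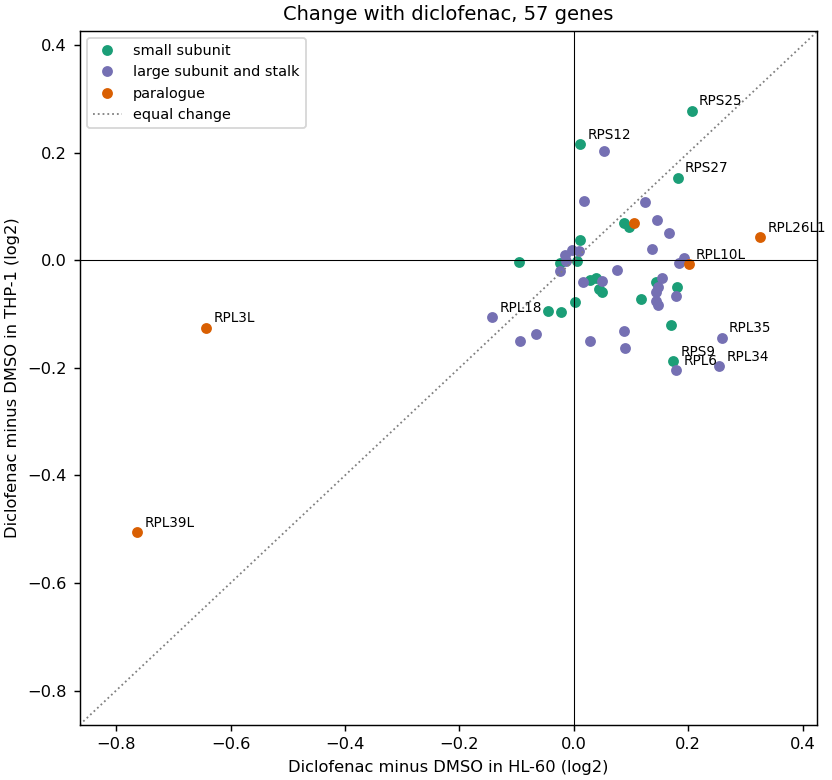
Log2 change with diclofenac for 57 genes, in HL-60 on the horizontal axis and in THP-1 on the vertical axis; each point is 1 gene, colours mark its role and the dotted line is equal change. The 52 standard proteins lie between -0.20 and 0.28 on both axes, 41 of them to the right of 0 in HL-60, while RPL39L lies at -0.76 and -0.51.

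The change with diclofenac was then compared between the lines. Of 58 genes, 28 were above 0 in HL-60 and below 0 in THP-1, 16 were above 0 in both and 12 below 0 in both. Over all genes 52.1% shared the sign. The test of the difference itself called 0 of 58 and 0% of all genes, with a lowest adjusted p of 0.36, and 9 of 58 were below an unadjusted p of 0.05, every one lower in THP-1 (15.5% against 7.4% of all genes, of which 3.98% were higher and 3.42% lower). Among the 57 other bright genes the share was larger, at 21.1%, with 12 higher and 0 lower. The median difference was -0.073, against 0.042 for the other bright genes. It was -0.12 as deposited and 0.074 under median centring, where the median of all genes was 0.10. RPL34 had a difference of -0.45 (SE 0.093, adjusted p = 0.36), RPL35 of -0.40 (SE 0.099), RPL6 of -0.38 (SE 0.11), RPS9 of -0.36 (SE 0.091) and RPS6 of -0.29 (SE 0.079). The highest differences among standard proteins were 0.20 for RPS12 and 0.15 for RPL27. Without THP-1 DMSO replicate 1, 3 members passed, RPL34, RPL6 and RPS9, against 19.5% of all genes.

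**Figure D5:**
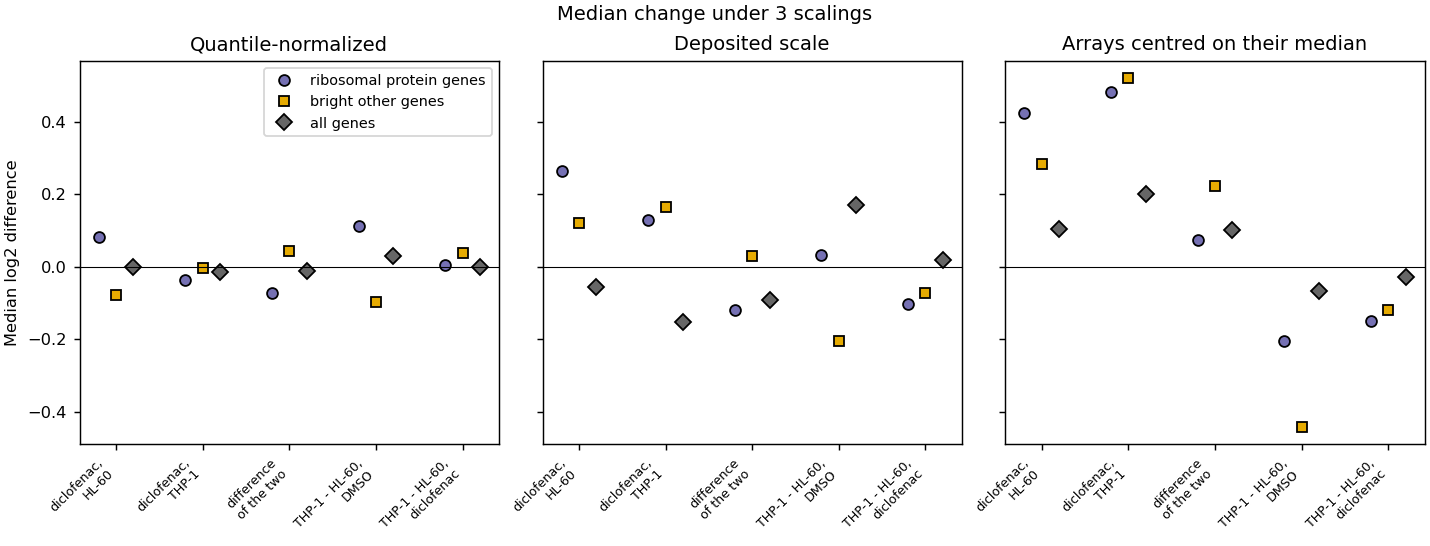
Median log2 difference of the 58 ribosomal protein genes, 57 other bright genes and all 11963 genes in each of 5 comparisons, in 3 panels for quantile-normalized values, the deposited scale and arrays centred on their median. The ribosomal protein genes lie above the other bright genes in HL-60 with diclofenac and between the lines with DMSO in every panel, while the sign of their median in THP-1 with diclofenac changes between panels.

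The genes with and without the start motif were set side by side. Of the standard proteins with an entry that was used, 34 had the run of pyrimidines at the annotated start and 12 did not. Their median changes with diclofenac were 0.11 and 0.051 in HL-60 and -0.033 and -0.045 in THP-1. Between the lines with DMSO the medians were 0.12 and 0.083. Genes that passed between the lines came from both kinds: RPS21, RPL35A, RPS6 and RPL39 have the run printed in capitals above, and RPS4X and RPS29 have none at the annotated start.

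Where a gene had more than 1 bright probe set the readings could be compared. The 13 genes with further probe sets of a mean log2 signal of at least 13 had 16 such probe sets, and 12 of the 16 had the sign of the representative in the line comparison with DMSO, with a median distance of 0.10. RPL7 had the widest distance, 0.28 there and 0.41 for diclofenac in THP-1. RPS6 had 3 bright probe sets, all higher in THP-1 with DMSO, and 2 of them passed. The 16 genes left out for shared probe sets had a median of 0.041 with diclofenac in HL-60, -0.0081 in THP-1 and 0.089 between the lines with DMSO, where 2 passed higher and 3 lower.

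Other genes of the pathway were taken from lists. Translation factors and partners were listed as genes with TOP mRNAs (20 of 25 measured), and the motif was not checked for them here. They had medians of 0.033 with diclofenac in HL-60 and -0.015 in THP-1, the latter -0.0325 without THP-1 DMSO replicate 2. None of them passed in either line. Between the lines 6 were higher and 3 lower in THP-1 with DMSO (45% against 18.7% of all genes), and 4 and 3 with diclofenac (35% against 16.1%). Without THP-1 DMSO replicate 2 it was 3 and 3 with DMSO. HNRNPA1, an RNA-binding protein, was higher by 1.31 and 1.26, EIF4B, a helicase cofactor, by 1.08 and 0.71, and EIF3F, a subunit of eIF3, by 0.70 and 0.34. EIF2S3, a subunit of eIF2, was lower, at -1.01 and -0.88. EEF1D, an elongation factor subunit, had the widest change with diclofenac in HL-60, 0.41 (adjusted p = 0.57).

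Regulators of ribosomal protein mRNA (18 of 21 measured) had medians with diclofenac of 0.0041 in HL-60 and 0.11 in THP-1, and none passed in either line. The THP-1 value was 0.0099 when THP-1 DMSO replicate 2 was left out. Between the lines 1 was higher and 4 lower with DMSO (27.8% against 18.7% of all genes), and 4 and 3 with diclofenac (38.9% against 16.1%). Without THP-1 DMSO replicate 2 the counts became 3 higher and 4 lower for DMSO and 6 higher and 4 lower for diclofenac. EIF4EBP1, the translational repressor that mTORC1 inactivates, was at -0.64 and -0.997 in THP-1 against HL-60, and LARP4, a poly(A)-binding protein partner, at 0.94 and 0.88. DDIT4, an inhibitor of mTORC1, was at -0.92 with DMSO. RHEB, the GTPase that activates mTORC1, was at 0.88 and YY1, a transcription factor, at 0.90 with diclofenac. LARP1 was at -0.034 with DMSO and -0.31 with diclofenac (adjusted p = 0.024).

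The mitochondrial ribosomal proteins, which build a separate ribosome, had 51 measured genes. With diclofenac their medians were 0.052 in HL-60 and -0.13 in THP-1, the latter -0.10 without THP-1 DMSO replicate 2, and none passed. Between the lines 10 were higher and 5 lower in THP-1 with DMSO, 29.4% of them against 32.8% of the cytosolic genes and 18.7% of all genes. Their range between the lines with DMSO, from -1.02 to 1.14, was wider than the -0.58 to 0.54 of the 52 cytosolic genes without paralogues. The paralogue RPS27L, left out of that range, was at -1.13. The mitochondrial genes were also dimmer, with a median mean log2 signal of 10.24 against 13.99 for the 52. The 57 other bright genes ranged from -1.17 to 1.24. What sets the width of these ranges was not tested.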

How the data were processed

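The deposited intensity values, linear and 1 per probe set and array, were used as the authors deposited them in the series' value table. Per the labels' protocols, biotinylated cRNA was made from total RNA, and the series names the Affymetrix HU-133A array. The software behind the intensities is not given in the sources used here. The mean of the values without the highest and lowest 2% was 500.1 to 500.2 on each array. Column medians were 109.6 to 241.2, no centring across arrays was present, and each column holds 1 sample, so no direction was in question. The number of arrays limits the precision.

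Intensities were converted to log2(value + 50). Array medians ranged over 0.868 log2 units, above the 0.5 set as the limit, so values were quantile normalized. Folds are on this scale and understate changes of dim genes. The table held 22277 probe sets, of which 22215 were tested and 62 were controls. The platform annotation gave 1 symbol for 19064, several for 1043 and did not list 2108. Means of the 4 groups were fitted on all 8 arrays with limma 3.58.1 in R 4.3.3, with 4 residual degrees of freedom and an intensity trend in the moderated spread (4.41 prior degrees of freedom). Adjusted p-values are Benjamini-Hochberg over the 22215 probe sets, with a threshold of 0.05, and errors are limma's standard errors. The steps were tested on simulated data.

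The members and lists were chosen with earlier results of these data known. Named genes were the members called (up to 8 per direction and comparison), the 5 highest and 5 lowest per comparison, the 3 brightest and dimmest, and fixed lists of role genes and paralogues. Other bright genes are the 57 non-members with a mean log2 signal of at least 13.44, the lower quartile of the members. The correlation of the deviations of same-numbered arrays was -0.0043 (HL-60) and -0.0080 (THP-1), and the numbers were not taken to pair arrays. Start sequences came from RefSeq. Python 3.11.15 with matplotlib 3.10.9 drew the figures.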

Additional observations from a re-analysis of the deposited data

How the results depend on the processing

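RPS27L kept its direction in the 18 alternatives of each line comparison and lost its call in 1, median centring. RPS4X and RPL39 kept their direction in all 18 as well. In both line comparisons every standard protein called, RPS4X and RPL39 included, lost its call on the deposited scale, under median centring and with no intensity trend. RPL39 with DMSO also lost it with the replicate number as a block, a fit that did not test the difference between group means. The count of members that passed between the lines with DMSO, 19 as reported, was 2 on the deposited scale, 1 under median centring, 2 with no intensity trend and 9 with each array centred on its 50 bright members. With diclofenac in both lines the count, 12 as reported, was 2, 1 and 2 under the first 3 of these. The shares were 3.45% against 15.7% of all genes, 1.72% against 5.69% and 3.45% against 11.9%, in that order. With the dimmest 40% of probe sets left out the count was 19. The share of all genes was not counted in that last fit. The median of the members on the deposited scale was 0.2630 for diclofenac in HL-60, 0.1286 in THP-1, -0.1185 for their difference, 0.0335 between the lines with DMSO and -0.1038 with diclofenac. Under median centring the same medians were 0.4245, 0.4824, 0.0739, -0.2041 and -0.1490. With the 16 genes of several-symbol probe sets added, a setting chosen after the data were seen, the HL-60 median was 0.0527. Median centring reversed the sign between the lines with DMSO for FAU (-0.0895), RPL23A (-0.0942), RPL3 (-0.0106), RPL37 (-0.0140), RPL38 (-0.0693), RPL8 (-0.0277), RPS12 (-0.0944), RPS23 (-0.1020) and RPS6 (-0.0066). RPL38 was -0.3220 with _x_at probe sets avoided and -0.0489 as the mean of its probe sets, and RPL18 by that mean was 0.1409 with DMSO and 0.0414 with diclofenac. The cause of these changes was not tested. Leaving out each array in turn gave 0 to 0 calls in HL-60 (medians 0.0643 to 0.0992), 0 to 3 in THP-1 (-0.0378 to -0.0231), 0 to 3 for the difference (-0.1001 to -0.0766), 12 to 16 between the lines with DMSO (0.0835 to 0.1293) and 7 to 12 with diclofenac (-0.0099 to 0.0246). A lone array left in a group is assumed to vary like the other groups.

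With the replicate number as a block, the count was 12 between the lines with DMSO (20.7% against 9.79% of all genes). It was 9 with diclofenac (15.5% against 9.5%), and 0 in the other 3 comparisons. The labels do not say that the numbers pair arrays.

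Groups of 2 arrays were not tested for outlying samples.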
